A study of Bos taurus with 8 samples.

Results

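CHRDL2, CALCR, DLK1 and CHODL are 4 of the 21880 genes in the deposited single-cell count matrices of bovine muscle, taken by their gene symbols as markers of satellite cells (SCs) in muscle, whose fate in culture was the question. The Ensembl identifiers in the files are ENSBTAG00000021306 for CHRDL2, ENSBTAG00000017458 for CALCR, ENSBTAG00000037899 for DLK1 and ENSBTAG00000000588 for CHODL. They were chosen by their measured level in muscle SCs against other cell types, with the fall at passage 0 partly known, so their levels by cell type and from muscle to passage 0 are given as descriptions, without a test. Comparisons within muscle SCs, between donors of different age and between passages carry tests. Those between passages are read as descriptions, since the genes were chosen with earlier results of these data known.

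SCs are the resident stem cells of skeletal muscle, which lie quiescent beneath the basal lamina of the fibre and enter the cell cycle, commit and fuse after injury or plating. CALCR is the receptor for calcitonin, a G protein-coupled receptor that holds mouse SCs in quiescence, for which fibrillar collagen V made by the SCs can act as a ligand. CHRDL2 (chordin-like 2) is a secreted protein that binds bone morphogenetic proteins (BMPs) outside the cell. DLK1 is a transmembrane protein related to the Notch ligands, encoded by an imprinted gene and also known from preadipocytes. CHODL (chondrolectin) is a membrane protein with a C-type lectin domain.

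The study followed cells of the semitendinosus muscle of 10 Belgian Blue cattle, 5 calves and 5 adults, from muscle into long-term culture by 10x Genomics 3' single-cell RNA sequencing. Timepoint 1 was the mononuclear fraction straight after collagenase digestion ("muscle", 10 donors), and Timepoint 2 the cells 72 h after plating in a medium without serum (passage 0, 9 donors, donor 3 not being cultured). Timepoints 3, 4 and 5 were passages 2, 5 and 8 of cultures kept unsorted (donors 1, 2 and 9), sorted as SCs (donors 5, 6 and 10) or sorted as fibro-adipogenic progenitors (FAPs; donors 4, 7 and 8). According to the paper, vessels were coated with fibronectin before sorting and for unsorted cells, with laminin for sorted SCs and with collagen for sorted FAPs. Sorting and coating therefore cannot be told apart. At each timepoint the donors were pooled into 1 library and told apart by genotype, so timepoint and library cannot be told apart. Calves were donors 2, 4, 5, 7 and 10, adults donors 1, 3, 6, 8 and 9, and donors 6, 8 and 10 were males.

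In all, 36129 cells passed the authors' quality control, with a median per timepoint of 4184 unique molecular identifiers (UMIs) per cell in muscle and of 18340 to 27240 in culture. SCs are the cells that carry the authors' deposited SC label, 647 in muscle, 2282 at passage 0, 3979 at passage 2, 3586 at passage 5 and 156 at passage 8. Levels are counts per 1000000 UMIs (CPM) summed over the SCs of a donor, and donors with fewer than 10 cells were left out of means. Barcodes present in more than one library numbered 129. The label fits its markers in muscle, where the summed level of 8 SC markers (PAX7, MYF5, ITGA7, NCAM1, DES, CDH15, MET and FGFR4) was 1167 to 2499 CPM in SCs and 121 to 277 CPM in FAPs. Markers of other cells were also counted in the muscle SCs: 8 muscle fibre genes summed to 339 to 1041 CPM and 5 FAP markers (DCN, LUM, PDGFRA, DPT and PDPN) to 79.0 to 879 CPM, against 766 to 1290 and 21524 to 26056 CPM in FAPs. Some markers of smooth muscle and mesenchymal, glial and lymphatic endothelial cells were counted in the muscle SCs as well.

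In muscle, CHRDL2 and CALCR were found almost entirely in SCs, CHODL mostly in SCs with a low level in several other types, and DLK1 about as high in FAPs as in SCs. The level of DLK1 in FAPs goes against the name SC marker. CHRDL2 ranged from 124 CPM in donor 8 to 798 CPM in donor 3, with a median of 294 and a mean of 398 ± 248 CPM (SD, n = 10). In the other types with data from 4 or more donors the mean was at most 2.33 ± 2.96 CPM, in vascular endothelial cells (VECs). Every donor's SCs lay above every value in another type with 10 cells, the highest of which was 22.8 CPM in neutrophils of donor 4, from 1 UMI.

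CALCR in muscle SCs ranged from 53.6 CPM in donor 10 to 229 CPM in donor 2, with a median of 105 and a mean of 115 ± 51.9 CPM (n = 10). No CALCR UMI was found in 1231 FAPs, 548 smooth muscle and mesenchymal cells (SMMCs) or 81 lymphatic endothelial cells (LECs), which allows shares of up to 0.244%, 0.547% and 3.70% of cells with a UMI. Its 3 UMIs in lymphocytes came from a single cell of donor 4, whose small lymphocyte sample then read 55.4 CPM. Among donors with at least 10 cells of a type, that value is the only one outside SCs that reached the SC range. The 45 myocytes had a pooled level of 18.0 CPM, from 3 UMIs in 1 cell of donor 5.

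CHODL in muscle SCs ranged from 81.9 CPM in donor 3 to 529 CPM in donor 5, with a median of 212 and a mean of 276 ± 161 CPM (n = 10). Among the types with at least 10 cells in each of 4 or more donors, VECs averaged 7.31 ± 6.20 CPM, lymphocytes 6.48 ± 17.4, FAPs 5.59 ± 4.64 and SMMCs 3.48 ± 8.15 CPM (n = 10 each). These 4 neighbours in the order lay within each other's spread between donors. The rare tenocytes (23 cells, 7 UMIs) and myocytes (45 cells, 4 UMIs) had higher pooled levels, 49.3 and 24.1 CPM. All 4 myocyte UMIs lay in 1 cell and 5 of the 7 tenocyte UMIs in 1 cell, both of donor 5. The highest donor value outside SCs with at least 10 cells was 55.4 CPM, from 3 UMIs in lymphocytes of donor 4, the donor whose lymphocyte held CALCR, and it lay below every SC value.

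DLK1 in muscle SCs was the most variable between donors. Its level was 61.4 CPM in donor 3, 122 in donor 6, 279 in donor 9, 319 in donor 1 and 729 CPM in donor 8, all adults. In the calves it was 666 CPM in donor 5, 670 in donor 10, 919 in donor 7, 1617 in donor 4 and 2049 CPM in donor 2. The mean was 743 ± 646 CPM in SCs and 974 ± 486 CPM in FAPs (n = 10), and the types overlapped over most of their range. SCs were above FAPs of the same donor in 3 of 10 donors, all calves. Lymphocytes averaged 80.8 ± 234 CPM and VECs 53.0 ± 59.0 CPM. The rare tenocytes, neutrophils and myocytes had pooled levels of 197, 192 and 156 CPM, each from at most 6 cells with a UMI, and no DLK1 UMI was seen in 81 LECs. Of the 88 DLK1 UMIs in lymphocytes, 79 lay in a single cell of donor 7.

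The ratio of DLK1 to FAP RNA differed between types. For every 100 UMIs of DCN, the most abundant FAP marker, FAPs held 5.08 DLK1 UMIs, SCs 404, VECs 23.2, SMMCs 7.67, monocytes and macrophages 3.85 and tenocytes 0.955. For every 100 UMIs of LUM, another FAP marker, FAPs held 41.7, SCs 3297, VECs 190, SMMCs 50.0, monocytes and macrophages 26.0 and tenocytes 15.0. Lymphocytes held 23.2 and 58.3 (mostly from the single cell above), myocytes 4.63 and 45.6, and neutrophils 4.09 and 52.8. The values of types other than FAPs, SCs and VECs rest on 13 to 88 DLK1 UMIs. In VECs, 3 of 1166 cells held UMIs of 3 or 4 of the genes. Levels are not compared between genes here.

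**Figure D1:**
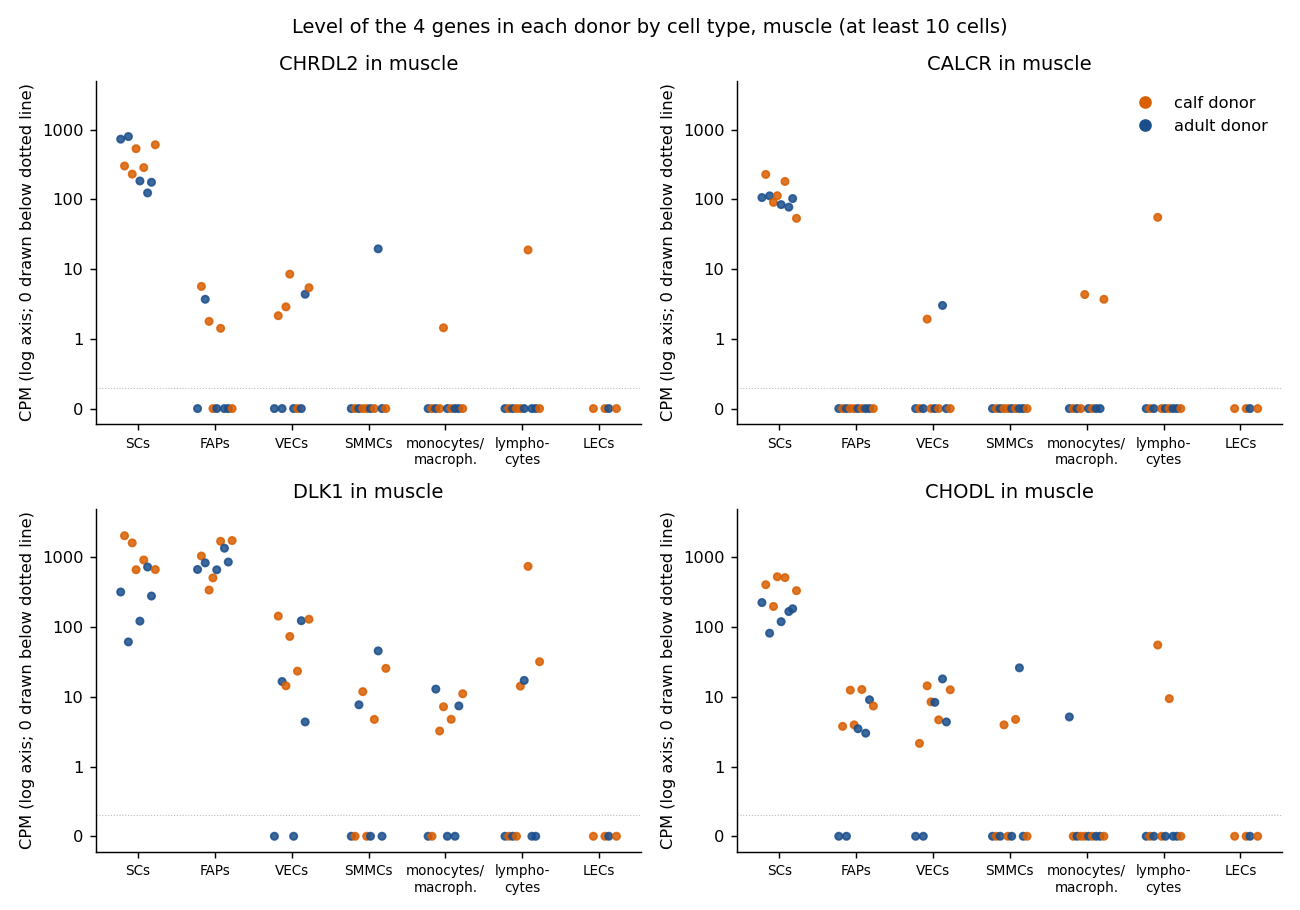
Level of CHRDL2, CALCR, DLK1 and CHODL in muscle (CPM, log axis with 0 drawn below the dotted line) by cell type, 1 point per donor with at least 10 cells of that type, calves in orange and adults in blue. SCs stand apart from all other types for CHRDL2, while FAPs overlap SCs for DLK1.

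CHRDL2 was detected in 41.4% of the 647 muscle SCs (95% exact binomial interval 37.6 to 45.3), CALCR in 24.6% (21.3 to 28.1), DLK1 in 50.9% (46.9 to 54.8) and CHODL in 43.0% (39.1 to 46.9). In the 403 monocytes and macrophages, which were sequenced more deeply (median 6108 UMIs against 3861 in SCs) and are taken here as the background, the shares were 0.248%, 0.496%, 2.98% and 0.248%. With every cell thinned to 2000 UMIs, which left out 46 of the 647 SCs, the shares were 34.6% for CHRDL2, 17.3% for CALCR, 45.1% for DLK1 and 34.1% for CHODL. Intervals and limits of detection cover counting error only.

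Most muscle SCs held some of the genes and few held all. Of the 647 cells, 120 had no UMI of any of them, 219 had UMIs of 1, 151 of 2, 115 of 3 and 42 of all 4. Median depth was highest in the cells with none (4987 UMIs) and between 3536 and 3935 UMIs in the others, so the cells with none were not the shallow ones. Within positive cells the UMIs were spread over many cells: the richest cell held 3.05% of all SC UMIs of CHRDL2, 2.80% of CALCR, 2.20% of DLK1 and 2.28% of CHODL.

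The 4 genes separated by state within muscle SCs. MYOG, the transcription factor of commitment to fusion, was detected in 84 of the 647 cells (13.0%), and in these cells CALCR and CHODL had no UMI at all and CHRDL2 had 3, while DLK1 had 174. The MYOG-positive cells were the deeper ones, with a median of 5696.5 UMIs against 3655 in the cells without MYOG. Absence of CALCR allows up to 5.82 CPM in MYOG-positive cells, at least 24.2-fold below the 141 CPM of the other SCs, and absence of CHODL the same limit, at least 62.7-fold below 365 CPM. CHRDL2 was 76.2-fold lower (95% counting interval 26.0 to 370) and DLK1 2.72-fold lower (2.33 to 3.19). This comparison was added after the data were seen.

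The same split was made within each donor that had 5 or more cells on both sides, donors 2, 4, 5, 6, 8 and 10. CALCR was 73.6 to 308 CPM in their MYOG-negative SCs, CHODL 163 to 668 CPM, and each was at 0 in the MYOG-positive SCs of all 6 donors. CHRDL2 was 147 to 836 CPM without MYOG and 0 to 14.7 CPM with it. DLK1 was 151 to 2464 CPM without MYOG and 41.5 to 862 CPM with it. The mean log2 difference of DLK1 was -1.66 ± 0.29 (SD). DLK1 was lower with MYOG in 6 of 6 donors, and the exact two-sided sign-flip test over donors gave p = 0.0312, the smallest value that 6 donors allow. The count for the other members was also 6 of 6, but in donor 4, with 6 MYOG-positive SCs, a count of 0 allows up to 111 CPM, above the 102 CPM of CALCR in its other SCs, so CALCR could not be compared in that donor.

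**Figure D2:**
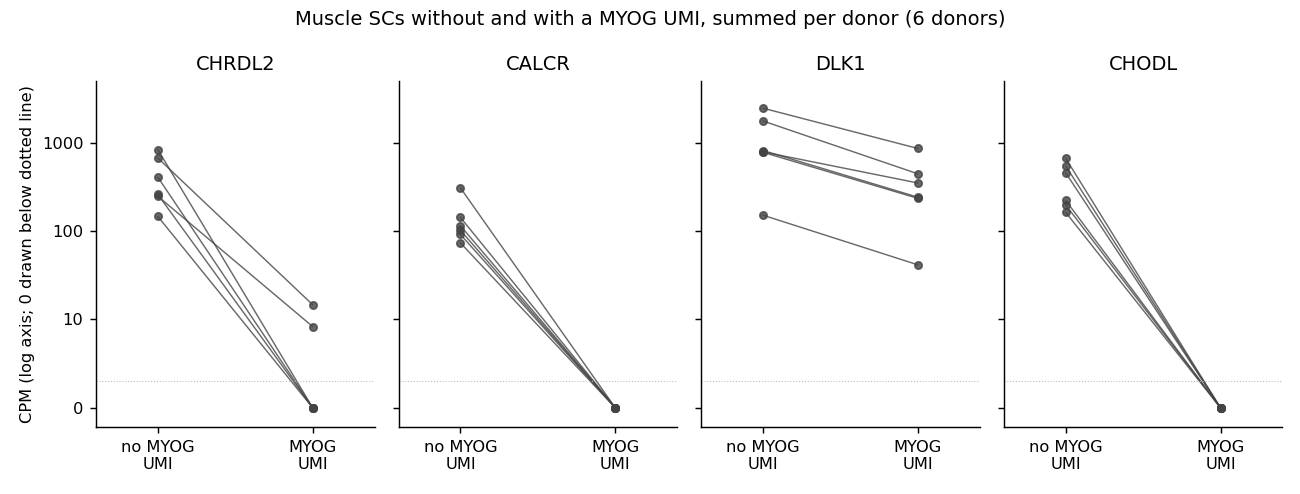
CPM (log axis, 0 drawn below the dotted line) of the 4 genes in muscle SCs without and with a MYOG UMI, summed per donor, with a line for each of the 6 donors that had at least 5 cells on both sides. All lines run downward, to 0 for CALCR and CHODL (for CALCR in donor 4 within the limit of a count of 0), while DLK1 stays between 41.5 and 862 CPM.

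After 72 h of culture the 4 genes had nearly gone from SCs, to unequal extents. Over all SCs, CHRDL2 went from 1017 UMIs of 2804015 in muscle to 2 UMIs of 43389571 at passage 0, CALCR from 322 to 79, DLK1 from 2275 to 23 and CHODL from 835 to 303. CHRDL2 was thus 7869-fold lower (95% counting interval 2173 to 65061), DLK1 1531-fold (1017 to 2419), CALCR 63.1-fold (49.2 to 81.7) and CHODL 42.6-fold lower (37.3 to 48.8). CALCR and CHODL kept a measurable level, and CHRDL2 was at the limit of detection, since 3 UMIs at this depth equal 0.0691 CPM.

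CHODL at passage 0 was present in SCs of all 9 donors, at 2.62 CPM in donor 10, 4.78 in donor 6, 5.42 in donor 4, 5.97 in donor 1, 6.51 in donor 8, 7.53 in donor 9, 7.61 in donor 2, 8.91 in donor 7 and 20.2 CPM in donor 5. The level left was 0.785% to 4.10% of the same donor's muscle level, with a median of 2.74%. CALCR also had a UMI in all 9 donors, between 0.337 CPM in donor 5 and 3.34 CPM in donor 1, which was 0.298% to 3.14% of the muscle level with a median of 2.34%. The values of donors 2 and 5 rest on a single UMI each and that of donor 10 on 2, below the floor of 3 UMIs. The pooled level of CALCR at passage 0 was 1.82 CPM in SCs and 0.0808 CPM in FAPs, the latter from 11 UMIs. DLK1 was at 0 in donors 1 and 5 and at 0.187 to 1.12 CPM in the others apart from donor 2 at 7.61 CPM, from 7 UMIs in 45 cells. One cell of donor 2 held 6 of these UMIs, and the median level left was 0.0503%. The 2 CHRDL2 UMIs fell in donors 6 and 9. No donor kept as much as 5% of its muscle level of any of the genes.

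The fit across all genes gave log2 fold changes at passage 0 over muscle of -11.99 (SE 0.59) for CHRDL2, -10.37 (SE 0.80) for DLK1, -5.998 (SE 0.31) for CALCR and -5.33 (SE 0.39) for CHODL, with 10 muscle and 9 passage 0 samples. They ranked 1, 5, 35 and 51 from the lowest among 5221 genes tested. In this comparison 34.3% of genes tested were called (18.5% called lower and 15.8% called higher, at adjusted p < 0.05 and an absolute log2 fold change above 1), and all 4 members were among those called lower. Because the members passed the count filter through muscle, where they were chosen to be high, nothing is read from that count.

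Levels of cell type markers within the cells labelled SC, and depth, moved along with this fall. In the SCs of passage 0 the 8 SC markers summed to 164 to 342 CPM against 1167 to 2499 CPM in muscle, the 5 FAP markers to 1151 to 2244 against 79.0 to 879 CPM, and the muscle fibre genes to at most 1.01 CPM. All 4 FAP markers tested in SCs were called higher, LUM (18.2 to 265 CPM), DCN (156 to 1171 CPM), PDGFRA and PDPN. Markers of other types were called lower, both SMMC markers tested (NOTCH3, -3.41, and ACTA2, -1.89), the LEC marker PROX1 (-4.88) and the glial marker S100B (-3.11), the last 2 each the only one of its list tested. NOTCH3 is also on the list of quiescence genes used below, so it does not stand for SMMCs alone. The part of all these markers in the members' values was not tested. FAPs at passage 0 still had more than SCs of the FAP markers (3028 to 4657 CPM) and less of the SC markers (21.2 to 33.1 CPM). Passage 0 cells were deeper (median 18203 UMIs in SCs). With SCs thinned to 2000 UMIs, CHRDL2 was seen in 0 of 2279 passage 0 cells, which allows up to 0.132%, DLK1 in 0.132%, CALCR in 0.483% and CHODL in 1.58%.

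**Figure D3:**
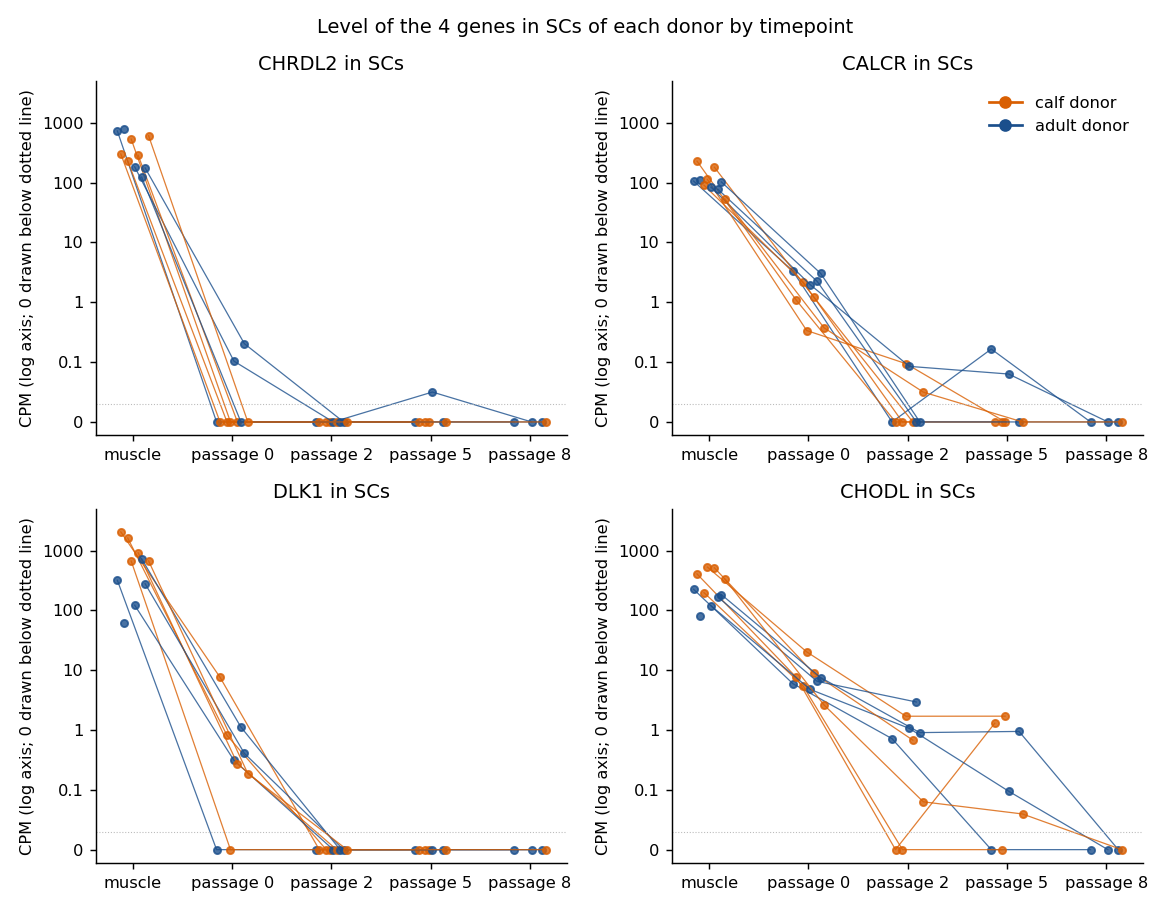
CPM (log axis, 0 drawn below the dotted line) of the 4 genes in SCs by timepoint, 1 line per donor with at least 10 SCs, calves in orange and adults in blue. CHRDL2 and DLK1 are at 0 in all 9 donors at passage 2. CHODL is above 0 in 7 of 9 donors there, but rests on 2 UMIs in donor 10 and on 2 UMIs in all in the FAP-sorted donors.

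Some genes of the pathways around CHRDL2, CALCR and DLK1 were also called lower at passage 0, in lists chosen with earlier results of these data known. Of 9 tested genes of the BMP axis 5 were called lower and 0 higher, where 18.5% of all genes tested were called lower and 15.8% higher, with a median log2 fold change of -1.25 against -0.01 over all genes tested. The largest changes were those of BMP4, a ligand (153 to 13.9 CPM, -3.48), the target ID3 (-2.64), the secreted antagonist CHRDL1 (-2.49) and the extracellular modulator TWSG1 (-1.85). Of the genes around CALCR, 5 of 10 tested were called lower and 1 higher, with a median of -0.92. Among these GNAS, which encodes the stimulatory G protein subunit, changed by -1.60, LATS1, a kinase of the Hippo pathway, by -1.47 and COL5A2, a collagen V chain, by -1.34, while PRKAR1A, a regulatory subunit of protein kinase A, rose by 1.501. Of 5 other imprinted growth genes tested, 3 were called lower: IGF2 (1820 to 9.78 CPM, -7.58), the cell cycle inhibitor CDKN1C (959 to 22.3 CPM, -5.48) and MEST (-3.39). Members of these lists were called lower in other types too. In FAPs, where 22.5% of all genes tested were called lower and 20.9% higher, 15 of 20 BMP axis genes were called lower and 0 higher, 8 of 13 genes around CALCR lower and 1 higher, and 6 of 8 imprinted genes lower and 0 higher. In VECs, where 19.6% were called lower and 15.6% higher, the counts were 9 lower and 1 higher of 10, 5 lower and 2 higher of 12, and 2 lower and 1 higher of 5.

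SC identity and quiescence genes were lower at passage 0 as well. Of 9 SC identity genes tested at passage 0 against muscle, 8 were called lower and 0 higher, beside 18.5% and 15.8% of all genes tested, with a median of -3.32, among them MYOD1 (-4.71), the chemokine receptor CXCR4 (-4.50), MYF5 (793 to 59.6 CPM, -3.73) and FGFR4 (-3.72). PAX7, the defining transcription factor of SCs, was 17.2 ± 10.4 CPM in muscle (n = 10) and 3.68 ± 0.94 CPM at passage 0 (n = 9) and did not pass the filter for this test. Of 12 quiescence genes tested, 11 were called lower and 1, NOTCH2, higher, beside the same shares, with a median of -3.49. NOTCH2 is named after its value was seen, and the largest falls were those of BTG2 (-6.18), the Notch targets HES1 (-5.93) and HEYL (-4.76), and CDKN1C. MYOG went from 472 ± 411 to 1.45 ± 3.64 CPM (-8.85). Genes of both lists were called lower in other types as well. Of all genes tested, 22.5% were called lower and 20.9% higher in FAPs, and 19.6% lower and 15.6% higher in VECs. Of the quiescence genes tested, 11 of 14 were called lower in FAPs and 10 of 13 in VECs, with 0 higher in either and medians of -2.94 and -2.29. Of the identity genes, 5 of 8 were called lower and 1 higher in FAPs, and 3 of 4 lower and 1 higher in VECs.

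From passage 0 to passage 2 no member rose. The 6 donors whose cultures were unsorted or sorted as SCs were compared, and only CHODL had enough counts for the fit across genes. Its level in donors 1, 2, 5, 6, 9 and 10 went from 5.97, 7.61, 20.2, 4.78, 7.53 and 2.62 CPM at passage 0 to 0.717, 0, 1.70, 1.06, 0.904 and 0.0630 CPM at passage 2. Every donor was lower at passage 2 and the ranges did not overlap. The fitted log2 fold change was -3.22 (SE 0.68), in a comparison where 8.73% of 9913 genes were called, 3.24% lower and 5.49% higher. CHODL passed the count filter through passage 0, where it is higher, so this fitted value is a description.

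CALCR in the same donors went from a mean of 1.69 CPM to 0.0351 CPM, lower in 6 of 6 donors. The passage 0 values rest on 14, 1, 1, 19, 15 and 2 UMIs in donors 1, 2, 5, 6, 9 and 10, so the direction in donors 2 and 5 rests on a single UMI each. The exact two-sided sign-flip test gave p = 0.0312 for CALCR and p = 0.0312 for CHODL, the smallest value possible. The pooled level of CALCR was 30.2-fold lower (95% counting interval 13.0 to 86.0). That sum shifts towards the SC-sorted donors, with 17934576 of 27954934 UMIs at passage 0 and 87071622 of 97361969 at passage 2. By culture, CALCR went from 1.23 to 0.0689 CPM in SC-sorted donors. In unsorted donors it went from 2.99 CPM to 0, with a floor of 0.292 CPM. With no filter on low counts, where 8.89% of genes were called, the log2 fold change by edgeR's quasi-likelihood test was -4.64 (adjusted p = 0.000271) for CALCR and -3.18 (adjusted p = 0.00618) for CHODL, and CHRDL2 (adjusted p = 0.0642) and DLK1 (adjusted p = 0.0698) gave no call. The members were chosen with earlier results of these data known, so the p-values in this paragraph are descriptions. DLK1 went from 13 UMIs to 0 in these donors, where a floor of 3 UMIs over the group equals a level 15.1-fold lower. This pooled value carries the same shift between donors. By culture, DLK1 went from 0.223 CPM to 0 (floor 0.0345 CPM) in SC-sorted donors and from 0.898 CPM to 0 (floor 0.292 CPM) in unsorted ones. A single cell of donor 2 held 6 of the 13 UMIs, and the 15.1-fold value leaves out counting error in the 13. DLK1 was lower in 4 of 6 donors and at 0 at both times in the other 2 (exact sign-flip p = 0.125). CHRDL2 went from 2 UMIs to 0 of 97361969, a change that the depth could not resolve.

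In the same comparison 7 of 12 SC identity genes tested were called higher and 1 lower, beside 5.49% and 3.24% of all genes, with a median log2 fold change of 1.22 against -0.02 over all genes tested. The largest rises were those of MYOD1 (3.35), FGFR4 (2.89), the HGF receptor MET (1.73) and the laminin receptor subunit ITGA7 (1.70), whose protein was in the antibody panel used for the SC-sorted cultures, sorted 72 h after isolation. MYF5 rose by 1.26 (52.5 to 130 CPM), still below its 793 CPM in muscle. CXCR4 was the one called lower (-1.20), and is named here after its value was seen. All 7 myogenic commitment genes tested were called higher, MYOG by 6.26 (2.00 to 124 CPM), and PAX7 stood at 3.75 and 4.06 CPM (0.08, adjusted p = 0.859 by edgeR). Of 17 quiescence genes tested, 4 were called higher and 0 lower, with a median of 0.58: CDKN1C (4.19), the receptor NOTCH3 (1.70), DAG1, which encodes dystroglycan (1.36), and HES1 (1.27). The comparisons of passage 0 with muscle and of passage 2 with passage 0 share the passage 0 samples. FAP markers in SCs at passage 2 summed to 1274 to 6547 CPM over the 9 donors, and 1 of 5 tested (LUM, 1.70) was called higher. All 3 SMMC markers tested were called higher, the smooth muscle genes ACTA2 (3.11) and CNN1 (2.87) and NOTCH3, which is also counted among the quiescence genes above. The lymphocyte marker CCL5, a chemokine, was called higher (2.19) and the monocyte marker CD14 lower (-1.48), each the only one of its list tested. The part of these markers in the values above was not tested.

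The pathways around the members moved unevenly from passage 0 to passage 2, where 5.49% of all genes tested were called higher and 3.24% lower. Of 19 BMP axis genes tested 4 were called higher and 0 lower, namely the activin and BMP antagonist FST (4.52), BMP4 (1.72) and the targets ID3 (1.69) and ID2 (1.09), with a median of 0.22. Of 12 genes around CALCR, 3 were called higher, COL5A2 (1.63), the ligand ADM (1.45) and COL5A1 (1.26), and 1 lower, RAMP2 (-1.55), which encodes a protein that partners with calcitonin-type receptors. Of 8 imprinted growth genes, CDKN1C (4.19), MEST (1.74) and PEG3 (1.45) were called higher and IGF2 (-2.30) and NDN (-1.46) lower. PEG3 is named after its value was seen. DLK1 was at 0 UMIs at passage 2 beside these genes.

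**Figure D4:**
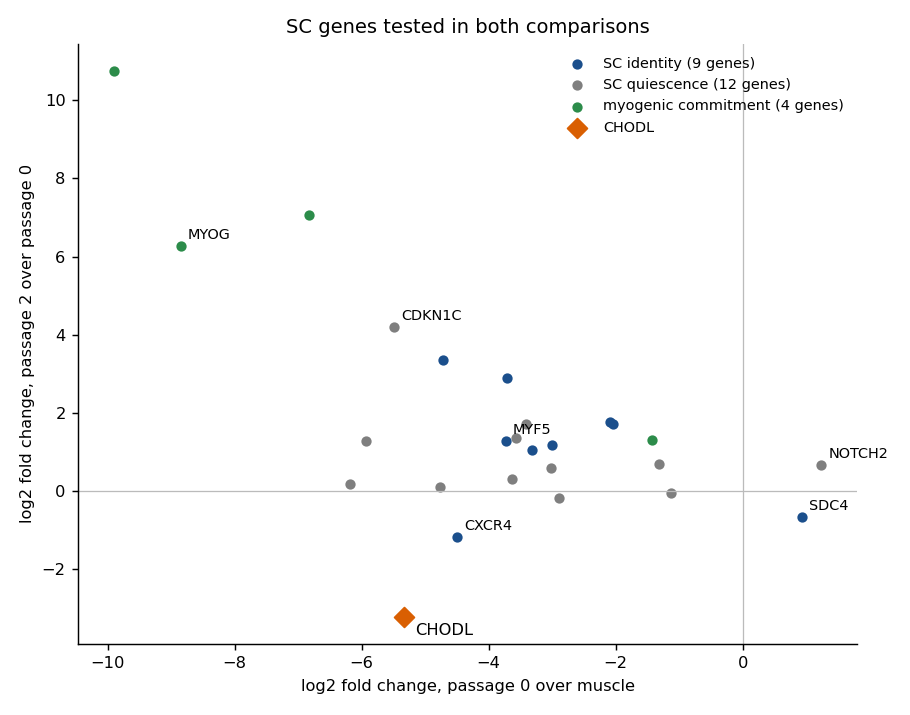
Log2 fold change in SCs at passage 0 over muscle (x axis) and at passage 2 over passage 0 (y axis) for CHODL and for the genes of 3 lists tested in both comparisons, which share their passage 0 samples. CHODL lies lower on both axes (-5.33 and -3.22), and among the identity genes CXCR4 also lies below 0 on both.

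What remained in passaged SCs was low, and CHODL was also found in FAPs. Its pooled level at passage 2 was 0.874 CPM in SCs and 0.465 CPM in FAPs, the latter from 70 UMIs. The shares of cells with a UMI were 1.58% and 1.14%. Donor ranges overlapped, at 0 to 2.94 CPM in SCs and 0 to 1.11 CPM in FAPs. The highest SC value came from the FAP-sorted cultures, whose SCs held 2 CHODL UMIs in all. The pooled levels at passage 5 were 0.326 CPM in SCs and 0.0687 CPM in FAPs, the latter from 11 UMIs. The difference between these types was not tested. At passage 2, 54 of the 89 CHODL UMIs in SCs came from donor 5 and 25 from donor 6, both SC-sorted cultures, which held most of the SC UMIs (87071622 of 101868326 in the SC-sorted donors). The third SC-sorted donor, 10, had 2 UMIs at the same depth as donor 5. CHODL was 1.70 CPM in donor 5, 1.06 in donor 6 and 0.0630 CPM in donor 10, against 0.717, 0 and 0.904 CPM in the unsorted cultures of donors 1, 2 and 9. The ranges of the SC-sorted and unsorted cultures overlapped, and the log2 fold change of sorted over unsorted was 0.59 (SE 1.36, adjusted p = 0.802 by edgeR, with 7.51% of genes called). These cultures also differed in coating. At passage 2 CHODL was 0.987 CPM in the 654 SCs that held a MYOG UMI and 0.851 CPM in the other 3325. The ratio of the cells without to the cells with MYOG was 0.862 (95% counting interval 0.503 to 1.56), against at least 62.7 in muscle. No difference by MYOG was thus seen in these cells, which were pooled over donors with most CHODL UMIs from donor 5.

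At passage 5 donor 5 held 18 of the 25 CHODL UMIs in SCs, at 1.70 CPM. Donors 6 and 10 were at 0.0948 and 0.0395 CPM, and the unsorted donors 1, 2 and 9 at 0, 1.30 and 0.947 CPM, from 0, 1 and 2 UMIs. The exact test of passage 5 against passage 2 gave p = 0.906 for CHODL (3 donors lower, 3 higher) and p = 1 for CALCR. Summed over these donors CHODL was 2.73-fold lower at passage 5 (95% counting interval 1.74 to 4.45, from 87 and 25 UMIs), a sum that the SC-sorted donors dominate. CALCR had 6 UMIs at passage 2 and 3 at passage 5, CHRDL2 0 and 1, and DLK1 0 and 0, of 101868326 and 76773371 UMIs. No member had enough counts for the fits of passage 5 against 2, where 0.195% of genes were called, or of passage 8 against 5, where 0.345% were called. With the donor as a block these 21 and 29 genes became 246 and 97. At passage 8 no UMI of any member was found in 156 SCs, which allows up to 1.13 CPM, a limit above most passage 2 and passage 5 levels.

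DLK1 was also far lower in FAPs in culture, and CHODL was still found in VECs. In FAPs DLK1 went from between 340 and 1748 CPM in muscle to between 0.348 and 2.04 CPM at passage 0, an 829.3-fold lower pooled level (95% counting interval 708 to 977). The fitted log2 fold change was -9.60 (SE 0.44, 10 and 9 samples), where 43.4% of genes were called and 22.5% were called lower. DLK1 passed the count filter through muscle, where it is high, so the value is a description. At passage 2 a single DLK1 UMI was left in 4987 FAPs. CHODL in FAPs went from 6.21 to 1.26 CPM, lower in 8 of 9 donors.

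CHODL in VECs was 8.13 CPM in muscle and 9.87 CPM at passage 0 in the same 9 donors, lower in 5 and higher in 4, on a mean log2 difference of 0.13 ± 2.36 (SD). At passage 0 the pooled level in VECs, 11.2 CPM from 137 UMIs, stood beside 6.98 CPM in SCs and 1.19 CPM in FAPs, and the donor ranges of VECs (0 to 22.1 CPM) and SCs (2.62 to 20.2 CPM) overlapped. No member had enough counts in VECs for the fit across genes, where 35.1% of genes were called. DLK1 in VECs went from 57.0 to 0.267 CPM, lower in 7 of 9 donors.

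Calves and adults differed in muscle SCs for DLK1 and CHODL by single-gene tests. DLK1 averaged 1185 ± 620 CPM in 5 calves and 302 ± 261 CPM in 5 adults, and the ranges overlapped only through donor 8, an adult at 729 CPM (exact two-sided permutation p = 0.0238, smallest possible 0.00794). CHODL averaged 396 ± 137 CPM in calves (406, 198, 529, 514 and 334 CPM in donors 2, 4, 5, 7 and 10) and 156 ± 56.0 CPM in adults (225, 81.9, 120, 168 and 184 CPM in donors 1, 3, 6, 8 and 9). One calf, donor 4, lay within the adult range (exact p = 0.0159). Without donor 3, which had the fewest SCs (26), the exact p was 0.0238 for both genes. Each is 1 of 26 exact tests run, and these p-values are unadjusted.

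In the fit across genes neither passed. The log2 fold change of calves over adults was 1.86 (SE 0.63, adjusted p = 0.467) for DLK1, the highest of 4155 genes tested, and 1.29 (SE 0.27, adjusted p = 0.161) for CHODL by edgeR. Only 4 genes (0.0963%) were called in this comparison. The call for CHODL rested on the tool, the filter and the donors: the adjusted p was 0.0082 by DESeq2 and 0.00778 by edgeR without donor 4. CHRDL2 (393 ± 168 CPM in calves, 403 ± 332 in adults; exact p = 0.635) and CALCR (133 ± 70.6 and 96.8 ± 15.1 CPM; exact p = 0.429) gave no call. None of the other lists gave a call with age, imprinted growth genes included (0 of 6 tested, median log2 fold change 0.41, summed level 3346 to 5258 CPM in calves and 1601 to 2470 CPM in adults). Commitment genes (0 of 6 called, median 0.17) summed to 639 to 2393 and 317 to 2394 CPM, and muscle fibre genes (0 of 4 called, median 0.96) to 471 to 1041 and 339 to 495 CPM. Their part in the age differences was not tested.

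DLK1 in FAPs was 1070 ± 654 CPM in calves and 878 ± 282 CPM in adults (log2 fold change 0.38, SE 0.46, adjusted p = 0.755 by edgeR, with 1.32% of genes called), and the adults lay within the calf range. The log2 ratio of SCs to FAPs in the same donor was 0.97, 2.24, 0.39, -0.89 and -1.38 in calves 2, 4, 5, 7 and 10 and -1.07, -3.74, -2.44, -0.90 and -1.62 in adults 1, 3, 6, 8 and 9. The means differed by 2.22 (exact p = 0.0317), and by 1.77 without donor 3 (exact p = 0.0714). CHODL in FAPs averaged 8.07 CPM in calves and 3.12 CPM in adults (exact p = 0.0714).

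At passage 0 only CHODL had enough counts for the fit of age across genes, and it gave no call. CHODL averaged 8.96 ± 6.74 CPM in 5 calves and 6.20 ± 1.15 CPM in 4 adults (exact p = 0.643; log2 fold change 0.51, SE 0.50, adjusted p = 0.734 by edgeR), where 0 of 9908 genes were called by edgeR, 1018 had an unadjusted p under 0.05 and DESeq2 called 5. DLK1 averaged 1.78 and 0.460 CPM (exact p = 0.778). Both orders rested on 1 calf: without donor 2 DLK1 averaged 0.319 CPM in calves, below the adults, and without donor 5 CHODL averaged 6.14 CPM in calves beside 6.20 in adults, means added after the data were seen. CALCR averaged lower in calves. It was 3.34, 1.97, 2.24 and 3.05 CPM in adults 1, 6, 8 and 9. In calves 2, 4, 5, 7 and 10 it was 1.09, 2.17, 0.337, 1.23 and 0.375 CPM. Of the measured calf values only that of calf 4 reached the adult range, and the exact permutation p was 0.0238. The calf values rest on few UMIs, 1 each in calves 2 and 5, 2 in calf 10, 8 in calf 4 and 9 in calf 7, against 10 to 19 in the adults. In calf 2 a floor of 3 UMIs lies above most adult values, so that calf could not be placed below the adults.

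**Figure D5:**
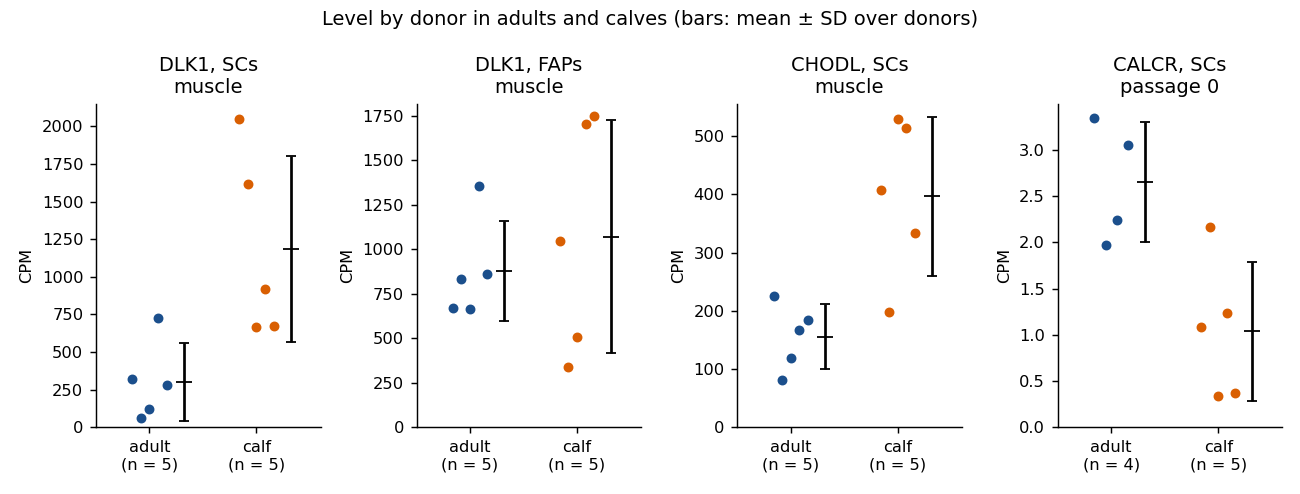
CPM (linear axis from 0) by donor in adults and calves for DLK1 in muscle SCs and FAPs, CHODL in muscle SCs and CALCR in passage 0 SCs, with bars of mean ± SD over donors. Calves lie mostly above adults for DLK1 and CHODL in muscle SCs and mostly below them for CALCR at passage 0, and they overlap for DLK1 in FAPs.

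The genes most like each member were looked for over 19 units of cell type and timepoint, among 12389 genes that reached 5 CPM in a unit, by Pearson's r of the mean log2(CPM + 1). These units share libraries and donors, so r is a description. For CHRDL2 they were the water channel AQP4 (r = 0.981), the secreted BMP antagonist NOG (r = 0.977) and the potassium channel KCNJ5 (r = 0.965). AQP4 was 35.7 CPM and NOG 19.1 CPM in muscle SCs, with 0.0115 and 0.0418 CPM at passage 0. CALCR was most like the amino acid transporter SLC16A10 (r = 0.947), CHRDL2 itself (r = 0.915) and the homeobox gene DBX1 (r = 0.910). CALCR and CHRDL2 were both chosen as high in muscle SCs, so nothing is read from their likeness.

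DLK1 was most like NPPC, which encodes C-type natriuretic peptide (r = 0.945), SPSB4 (r = 0.941) and the neurotrophic factor receptor GFRA1 (r = 0.940). All 3 were present in muscle FAPs as well as SCs: NPPC at 151 CPM in SCs and 57.1 CPM in FAPs, SPSB4 at 21.3 and 20.7 CPM, and GFRA1 at 130 and 214 CPM. CHODL had no gene as close, the nearest being MESP1 (r = 0.899), the histone variant gene MACROH2A2 (r = 0.880) and SCRIB (r = 0.878), at 5.11, 21.2 and 30.2 CPM in muscle SCs. MACROH2A2 kept 10.2 CPM and SCRIB 3.84 CPM in SCs at passage 0, where the genes most like CHRDL2 were near 0.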

How the data were processed

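Raw UMI counts per gene and cell were deposited by the authors for each timepoint, made with Cell Ranger 6.0.1 (named in the submitters' processing notes) on build ARS-UCD1.2 with Ensembl annotation. Donors were assigned by demuxlet, which finds doublets between donors and not within one, and no further caller was run here. The authors kept cells within 3 median absolute deviations for genes, counts and percent mitochondrial reads, and deposited a table with donor and cell type labels, including that percent per cell. Its other 11 columns were not used. Donor age and sex come from the study's description of the animals.

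Cells were summed per donor, type and timepoint, with at least 10 cells. Differences were tested across all genes with edgeR 4.0.16 (TMM, filterByExpr, glmQLFTest, R 4.3.3) and Benjamini-Hochberg adjustment, called at adjusted p < 0.05 and an absolute log2 fold change above 1. DESeq2 1.42.0 was an alternative. The fits were tested on simulated data. Single genes were compared by exact tests on log2(CPM + 1), 26 in all, unadjusted. Samples of one donor are of the same animal: the median correlation of their deviations from the group means was 0.01 for muscle and passage 0 SCs, 0.25 for passages 0 and 2, 0.50 for passages 2 and 5 and 0.19 for passages 5 and 8. The 4 genes and all lists were chosen with earlier results of these data known. Besides the members, up to 4 called genes per list with the largest changes are named, plus PAX7, MYF5 and MYOG, and the 3 genes with a symbol most like each member. Comparisons of VECs between muscle and passage 0, of calf and adult FAPs and of SCs by MYOG were added after the data were seen. Sequences and coordinates were not used here.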

Additional observations from a re-analysis of the deposited data

Results flagged for a closer look

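Of 17 groups of 4 to 10 donors examined for a single distant value, 3 had one. Chance gives about 1 in 20 for normally distributed values, a rate that need not hold for levels from few UMIs. CHODL in SCs at passage 0 was highest in donor 5, at 20.2 CPM from 60 UMIs, far from the next donor at 8.91 CPM. DLK1 in SCs at passage 0 was highest in donor 2, at 7.61 CPM from 7 UMIs in 45 cells, and CHODL in FAPs at passage 2 was highest in donor 2, at 1.11 CPM from 34 UMIs. The calf and adult difference of DLK1 was larger in muscle SCs than in FAPs of the same donors by 2.22 on the log2 scale (exact permutation p = 0.0317), and by 1.77 without donor 3 (exact p = 0.0714).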

How the results depend on the processing

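The fitted values of the members at passage 0 and of CHODL at passage 2 are descriptions and kept their sign in each alternative that gave one. After thinning to the smallest UMI total, the fitted changes were -8.33 for CHRDL2 and -4.70 for CHODL at passage 0, while CALCR and DLK1 at passage 0 and CHODL at passage 2 no longer passed the filter and gave no value. Counts of called genes moved by more than 1.5 times as follows, and the cause was not tested except where fewer or more genes were tested by construction. With no filter on low counts they were 5286 (SCs, passage 0 against muscle), 1473 (passage 2 against 0), 37 (calf against adult SCs), 6925 (FAPs, passage 0 against muscle), 152 (calf against adult FAPs) and 5030 (VECs), against 1789, 865, 4, 3997, 81 and 2071 as reported. After thinning they were 498, 516, 1, 1581, 39 and 1140, and 8 for passage 5 against 2 and 15 for passage 8 against 5. DESeq2 called 93 for passage 5 against 2, 109 for passage 8 against 5 and 5 for calf against adult SCs at passage 0, against 21, 29 and 0 by edgeR. Passage 8 against 5 gave 9 with at least 30 cells, and calf against adult muscle SCs 7 with sex as a covariate. With the donor as a block the counts were 246 for passage 5 against 2 and 97 for passage 8 against 5. The block moved the counts for passage 0 against muscle (2187) and passage 2 against 0 (965) by less than that and changed no member's call (CHODL at passage 2, -3.36). Leaving out 1 donor gave 10 to 28 (passage 8 against 5), 1 to 7 (calf against adult muscle SCs), 0 to 40 (the same at passage 0, 40 without donor 6) and 1 to 1114 (sorted against unsorted, 1 without donor 1, 109 without donor 9 and 298 without donor 5, against 855).

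CHODL in calf against adult muscle SCs passed the threshold by DESeq2 (1.30) and with no filter (1.34), and leaving out 1 donor gave 1.17 to 1.46, past the threshold without donor 4 only. CHRDL2 changed sign around 0 by DESeq2 (-0.065) and after thinning (-0.047), and ranged from -0.24 to 0.40 with 1 donor left out. CHODL at passage 0 ranged from -0.041 (without donor 5) to 0.80.

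Donor 3 gave 26 SCs and passage 8 only 156 in all, so levels there are the least certain.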
